A study of Homo sapiens with 15 samples.

Results

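The insulin-like growth factor (IGF) binding protein genes IGFBP1 to IGFBP7 were followed with the ligand gene IGF1 and the receptor genes IGF1R and IGF2R through the differentiation of H1 cells towards the heart lineage. These 10 genes were chosen by name, with earlier results of these data known. They were matched by Ensembl gene ID with no cut-off on their values, and all 10 were found among the 48777 genes of the tables. Through day 4, transcripts of IGFBP2 made up most of the family. By day 9 IGFBP6 and IGFBP4 held the largest shares, by day 11 IGFBP3 and IGFBP7, and on day 20 IGFBP3, IGFBP5 and IGFBP7, while the levels of IGFBP4, IGF1R and IGF2R moved least.

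IGFs are secreted peptides related to insulin that act on IGF1R, a receptor tyrosine kinase that signals to growth and survival. Nearly all IGF outside cells is held by the binding proteins, which lengthen its life, keep it from the receptor or, bound to matrix, store it close by, and proteases such as PAPPA free it again by cutting them. IGF2R, which is also the receptor for mannose 6-phosphate, carries IGF2 to lysosomes and has no kinase. The family has long been studied in pluripotent cells, which depend on IGF or insulin for self-renewal, and in the growth of the embryonic heart.

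H1, an established human embryonic stem cell line with no transgene named in the labels, was harvested on days 0, 4, 9, 11 and 20 with 3 libraries per day, 15 in all. Every group was labelled as grown on LN521+LN221, a coat of the recombinant laminins LN-521 and LN-221, although a deposited sample table lists LN-521 alone for day 0. Undifferentiated cells of day 0 were kept in Nutristem medium. From day 4 the cells received RPMI medium with B27 supplement lacking insulin, with the GSK3 inhibitor CHIR99021 for a day and, from day 7, the Wnt secretion inhibitor IWP2 for 2 days, and the labels also hold another schedule with CHIR99021 on days 1 and 3 and IWP2 on day 5. Per the labels, CTS B-27 Supplement took the place of the insulin-free supplement from day 11 on, so that the medium changed together with the day and day and medium cannot be told apart. The labels call the libraries of a day biological replicates of this single line, and they give day 9 where the study's methods list day 7. p-values therefore measure at most the spread between cultures of H1 and nothing wider. The labels do not say whether plate numbers mark separate cultures, and the day 20 libraries labelled plate 2 and plate 2_3 may share a plate.

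Each library held between 11990302 and 33469703 counted reads, with a median of 22867831, and the log2 CPM of libraries of a day correlated with Pearson's r of 0.893 to 0.988 across genes, which are not independent replicates. Libraries are named by day and by the plate number in their label, and values are given in the order replicates 1, 2 and 3 for day 0, plates 1, 2 and 5 for day 4, plates 2, 6 and no plate number for day 9, plates 2, 5 and 6 for day 11, and plates 2, 2_3 and 6 for day 20. The day 20 library of plate 2_3 stood apart, with an RNA integrity number of 6.1 (8.8 to 10.0 in the others) and counts on 48230 genes (30886 to 39551 in the others). The day 20 test values of single members are therefore also given without it. Day 20 counts of calls, and tests of genes outside the members, include it unless said otherwise. A 57-base gene that took 20.03% of all TPM in day 0 replicate 3 and 16.97% in day 9 plate 2 lowered every other TPM value of these libraries. The 6 pluripotency markers summed to between 6095 and 8829 TPM on day 0 and between 97.8 and 132 TPM on day 20. The 7 cardiomyocyte markers summed to between 10.7 and 15.7 TPM on day 0 and between 5356 and 22920 TPM on day 20. Hepatic or yolk sac endoderm markers (865 to 22700 TPM) and mesenchymal or fibroblast markers (1198 to 24360 TPM) were high on day 20 as well. In bulk RNA, fewer cells of a type and less RNA per cell cannot be told apart.

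Of the 7 binding protein genes, 4 lie in 2 pairs of neighbours on GRCh38. IGFBP1 (chr7:45888360-45893660, plus strand) and IGFBP3 (chr7:45912245-45921874, minus strand) are 18.6 kb apart, and IGFBP2 (chr2:216632828-216664436, plus strand) and IGFBP5 (chr2:216672105-216695549, minus strand) are 7.67 kb apart, each pair end to end. IGFBP4 lies at chr17:40443450-40457725, IGFBP6 at chr12:53097436-53102345 and IGFBP7 at chr4:57030773-57110385. IGF1 lies at chr12:102395874-102481744, IGF1R at chr15:98648539-98964530 and IGF2R at chr6:159969082-160113507. Since the strand setting of the counting was not stated, reads could not be told apart where a gene shares exon bases with an opposite-strand gene, which holds for 354 bases of IGFBP7 (with POLR2B and IGFBP7-AS1), 487 of IGFBP5 (with DIRC3-AS1) and 6693 of IGF1 (with HELLPAR). IGF2R shares 571 exon bases with CHP1P2 on its own strand, where no strand setting tells reads apart.

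Between day 0 and day 20 the neighbours IGFBP2 and IGFBP5 moved in opposite directions. IGFBP6 was highest on day 9, while IGFBP3 was highest on days 11 and 20, which overlapped. The proximal promoters of these genes are shown to set the members side by side. They run 5′ to 3′ on the gene's own strand from 250 bases before to 50 after the start given by RefSeq on GRCh38.p14, with the GC box GGGCGG (either strand) in capitals.
IGFBP2: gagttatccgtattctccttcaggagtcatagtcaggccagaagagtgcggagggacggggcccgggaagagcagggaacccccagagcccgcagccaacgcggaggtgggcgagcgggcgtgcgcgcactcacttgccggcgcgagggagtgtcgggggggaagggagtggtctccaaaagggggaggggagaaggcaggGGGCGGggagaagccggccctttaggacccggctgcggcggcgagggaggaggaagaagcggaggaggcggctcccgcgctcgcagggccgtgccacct
IGFBP3: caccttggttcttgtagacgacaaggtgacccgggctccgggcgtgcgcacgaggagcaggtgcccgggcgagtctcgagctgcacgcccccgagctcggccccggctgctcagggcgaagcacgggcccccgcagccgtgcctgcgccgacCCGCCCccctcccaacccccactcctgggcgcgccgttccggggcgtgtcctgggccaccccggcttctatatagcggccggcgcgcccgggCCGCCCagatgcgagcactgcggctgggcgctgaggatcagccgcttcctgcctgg
IGFBP5: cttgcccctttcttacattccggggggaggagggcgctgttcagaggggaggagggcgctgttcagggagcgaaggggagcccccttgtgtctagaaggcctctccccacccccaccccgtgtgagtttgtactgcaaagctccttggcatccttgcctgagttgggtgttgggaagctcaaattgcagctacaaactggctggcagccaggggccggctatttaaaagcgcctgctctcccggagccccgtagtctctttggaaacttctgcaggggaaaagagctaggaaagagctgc
IGFBP6: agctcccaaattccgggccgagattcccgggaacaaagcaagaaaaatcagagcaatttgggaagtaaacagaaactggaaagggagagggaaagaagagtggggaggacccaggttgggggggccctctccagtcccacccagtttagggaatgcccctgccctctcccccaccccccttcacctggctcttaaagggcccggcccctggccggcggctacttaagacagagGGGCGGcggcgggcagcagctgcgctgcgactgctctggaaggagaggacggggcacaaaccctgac

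IGFBP2's window is chr2:216633170-216633469 on the plus strand, IGFBP3's chr7:45921223-45921522 on the minus strand, IGFBP5's chr2:216695500-216695799 on the minus strand and IGFBP6's chr12:53097417-53097716 on the plus strand. IGFBP3 held 36 CpG and 2 GC boxes, with first bases at −98 and −6 from the start, and IGFBP2 held 28 CpG and 1 GC box at −49. IGFBP6 held 12 CpG and 1 GC box at −17, and IGFBP5 held 9 CpG with no match to these letters. Across the 35116 promoters of the table the median was 14 CpG, and 44.95% held a GC box on either strand. The letters TATAAA (either strand) were in 11.53% of the promoters and, among the 7 members with an entry, in that of IGFBP4 alone, at −29. Such matches describe the letters of these windows only.

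Summed over IGFBP1 to IGFBP7, the family stood at 909 ± 439 TPM (SD, n = 3 here and for all following means) on day 0, 1442 ± 395 on day 4, 569.5 ± 116 on day 9, 888 ± 134 on day 11 and 1280 ± 361 on day 20 (1371 without plate 2_3). TPM is scaled for gene length and library size and allows levels of different genes to be compared within a library. The sums of day 9 (446, 587 and 675 TPM) lay below all sums of day 4 (1242, 1188 and 1897), day 11 (742, 916 and 1006) and day 20 (1047, 1098 and 1696).

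The make-up of the family changed more than its sum. IGFBP2 held 77.8% ± 11.0 of the summed TPM on day 0 and 84.6% ± 4.05 on day 4. On day 9 its share was 17.4% ± 6.05, below those of IGFBP6 (38.6% ± 3.15) and IGFBP4 (28.6% ± 11.7). On day 11 IGFBP3 held 46.2% ± 14.4 and IGFBP7 18.9% ± 5.65. On day 20 the mean shares of IGFBP3 (31.6% ± 23.5), IGFBP5 (27.3% ± 19.0) and IGFBP7 (19.1% ± 10.3) hid a different leader in each library, with IGFBP7 in plate 2 (29.5%), IGFBP5 in plate 2_3 (49.1%) and IGFBP3 in plate 6 (58.6%). Without plate 2_3 the mean day 20 shares were 39.6% for IGFBP3, 16.4% for IGFBP5 and 19.2% for IGFBP7.

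**Figure D1:**
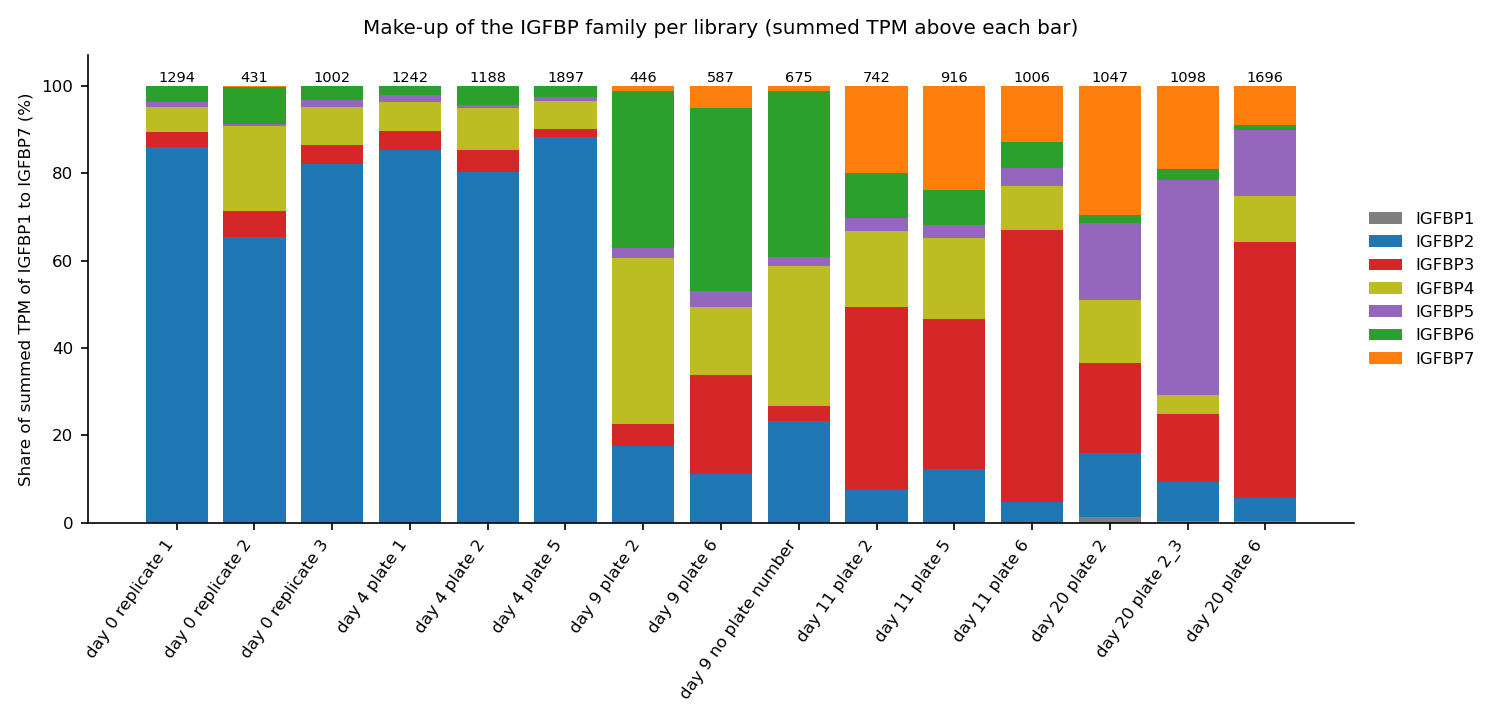
Stacked bars give the share (%) of each binding protein gene in the summed TPM of IGFBP1 to IGFBP7 in every library, in the order of days, with the sum in TPM above each bar. IGFBP2 fills 65.3% to 88.3% of the bars of days 0 and 4, IGFBP6 35.8% to 42.0% of those of day 9, and the 3 bars of day 20 are led by IGFBP7, IGFBP5 and IGFBP3.

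In the order of mean TPM over the 10 genes, IGFBP2 led on days 0 and 4 with every library above every library of the next gene, IGF2R, followed by IGF1R and IGFBP4. On day 9 the 5 leading genes, IGFBP6, IGFBP4, IGFBP2, IGF1R and IGF2R, each overlapped the next. On day 11 IGFBP3 stood above IGFBP7 in every library, and the following genes down to IGFBP6 overlapped their neighbours. On day 20 the order IGFBP3, IGFBP5, IGFBP7, IGFBP4, IGFBP2 held no step without overlap before that from IGFBP2 to IGF2R. At the other end, IGF1 and IGFBP1 were the lowest on every day. Among all genes, IGFBP2 ranked 146th by mean TPM on day 0 and 1456th on day 9, IGFBP3 4614th on day 0 and 225th on day 20, and IGFBP7 23058th on day 0 and 571st on day 20.

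**Figure D2:**
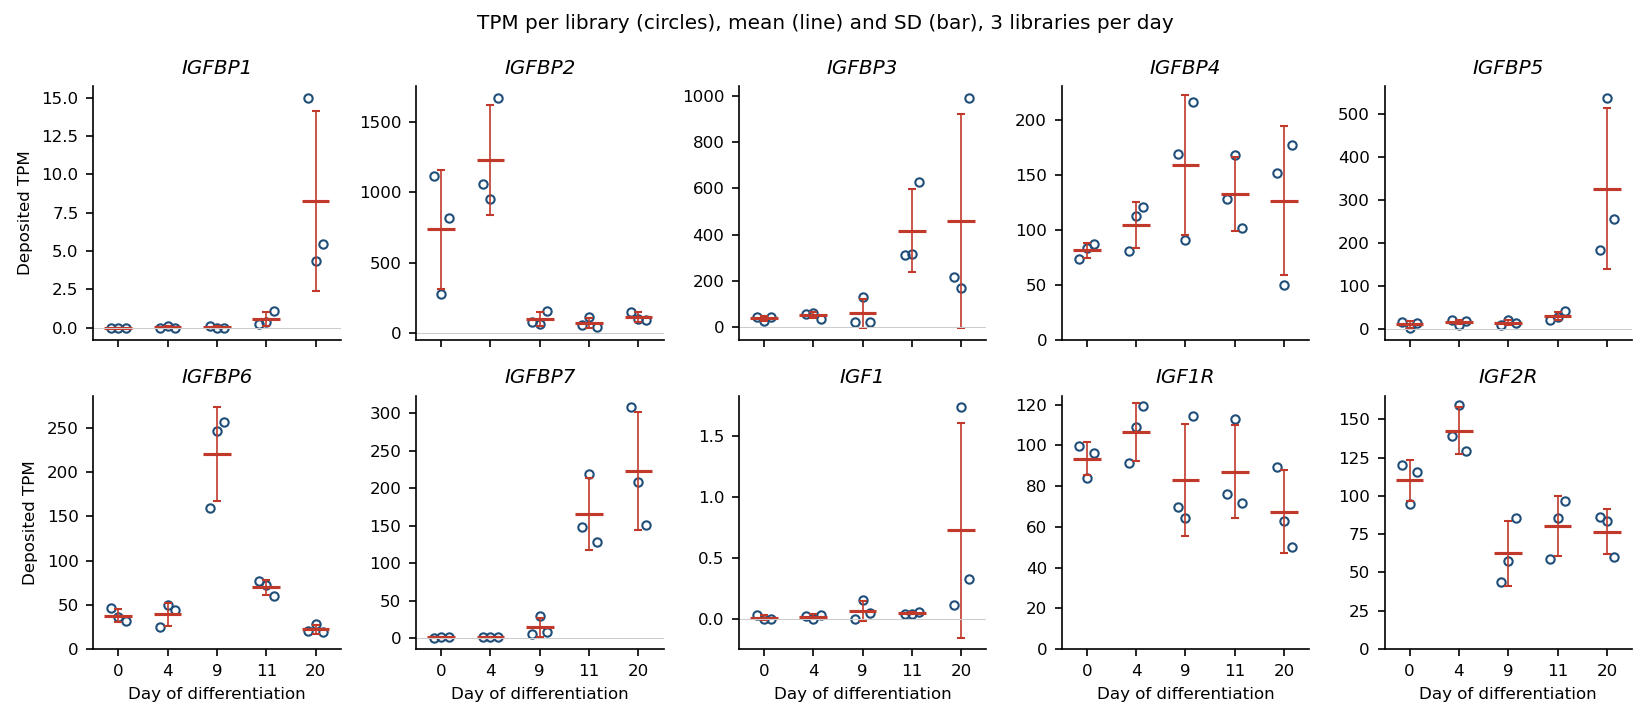
Each panel plots the deposited TPM of 1 gene against the day, with circles for the 3 libraries of a day, a line for their mean and a bar for the SD, and with its own vertical scale. IGFBP2 drops between days 4 and 9, IGFBP6 peaks on day 9, IGFBP3 and IGFBP7 rise by day 11, IGFBP5 by day 20, and the receptors IGF1R and IGF2R stay between 43.9 and 159.6 TPM.

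Neighbouring days were compared with edgeR's quasi-likelihood test on the counts, with adjusted p under 0.05 over all genes tested as the threshold. From day 0 to day 4, 0 of the 8 members tested changed, in a comparison where 0% of the 20964 genes were higher and 0% lower, 0 members reached an unadjusted p under 0.05, and DESeq2 and limma likewise called 0. Their log2 fold changes in this step lay between −0.01 and 0.65 and the smallest adjusted p was 0.885 (edgeR). From day 4 to day 9, 2 of 8 members were higher and 2 lower, where 24.3% of all genes tested were higher and 24.7% lower. From day 9 to day 11, 1 of 8 was higher and 1 lower (all genes, 1.39% and 1.00%), and from day 11 to day 20, 1 of 9 was higher and 1 lower (all genes, 1.12% and 0.435%). Over the whole course, day 20 against day 0, 4 of 9 members were higher and 2 lower, where 16.1% and 11.3% of all genes were, and 1 of the 4 was IGFBP1, which passed the filter only through day 20. In the test of any difference among the 5 days, 7 of 9 members passed, IGFBP1 included, where 50.4% of all genes did, and IGF1R (adjusted p 0.158, edgeR) and IGFBP4 (0.52) did not. The calls of IGFBP1 in these counts rest on the day that let it pass the filter and are not read as a result. The member shares of the changes between days 4 and 9 thus resembled those of all genes. IGF1 passed the filter on low counts in no comparison and IGFBP1 in those with day 20, where its own level let it pass. The median log2 fold change of all genes was 0.11 for day 20 against day 0 (0.23 with scaling by library size alone) and within 0.07 of 0 in the other comparisons.

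**Figure D3:**
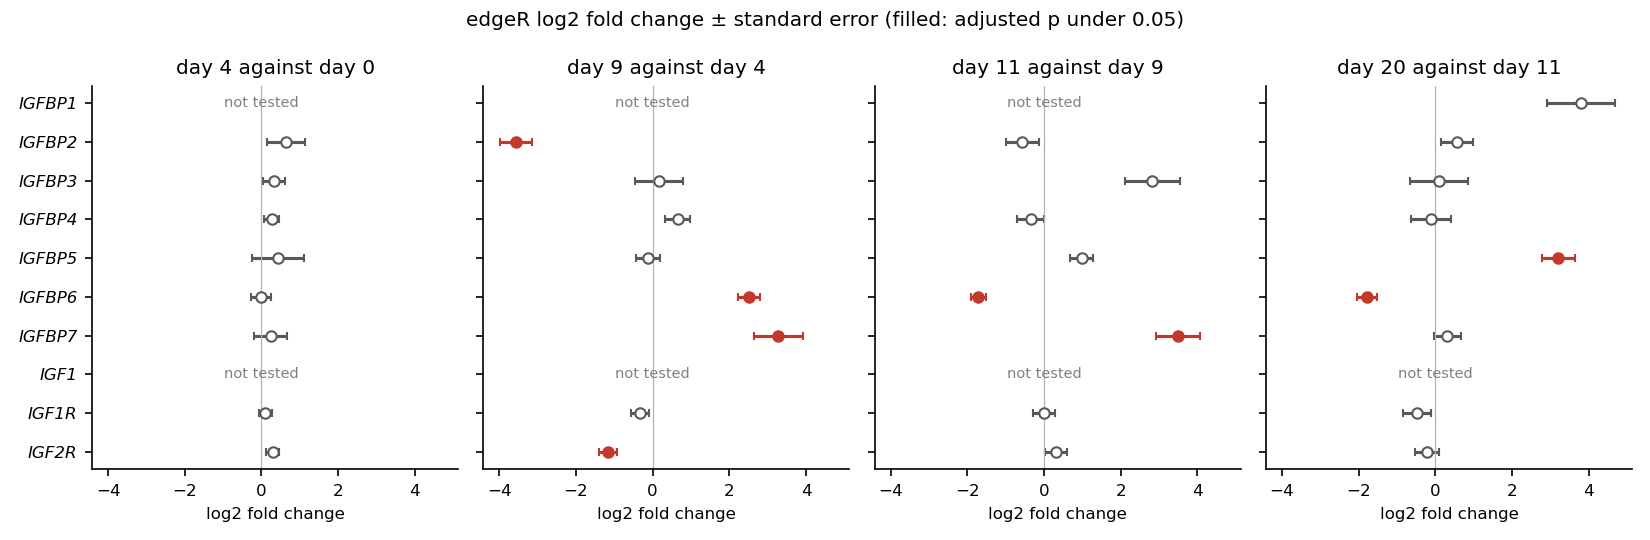
Points give edgeR's log2 fold change of each member in the 4 comparisons of neighbouring days, bars its standard error, and filled points an adjusted p under 0.05. No point is filled from day 0 to day 4, 4 are filled from day 4 to day 9 (IGFBP2 and IGF2R lower, IGFBP6 and IGFBP7 higher), and 2 in each later step.

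IGFBP2, a binding protein known to be abundant in embryonic tissue, was the member that fell most. It measured 1114, 282 and 822 TPM on day 0 and 1059, 954 and 1675 TPM on day 4, against 78.3, 65.9 and 158 TPM on day 9. Later values were 56.0, 112 and 46.8 TPM on day 11 and 152, 97.6 and 92.0 TPM on day 20. Every library of days 9, 11 and 20 lay below every library of days 0 and 4, and replicate 2 of day 0 was low within its day. From day 4 to day 9 IGFBP2 fell by 3.57 on the log2 scale (standard error, SE, 0.41, adjusted p 0.000338, edgeR), or 12.2-fold by mean TPM, and the call held under all 15 alternatives. It then stayed level within the spread of the libraries (−0.57, SE 0.43, adjusted p 0.566, day 11 against day 9, and 0.57, SE 0.41, adjusted p 0.541, day 20 against day 11, or 0.78, adjusted p 0.335, without plate 2_3), except that with the plate as a block the value for day 11 against day 9 was −0.52 with an adjusted p of 0.0433. In the fit with the plate as a block, only plates 2 and 6 held libraries of both days 9 and 11, so few libraries measured the spread. IGFBP2 on day 20 lay below day 0 by −2.94 (SE 0.56, adjusted p 0.00701), and by −2.73 (adjusted p 0.0117) without plate 2_3.

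IGFBP6, which prefers IGF2 over IGF1, passed through a peak. Its values were 46.1, 36.2 and 31.4 TPM on day 0, 24.7, 49.3 and 44.1 TPM on day 4, and 159.6, 246 and 256 TPM on day 9. By day 11 they were 76.9, 72.6 and 59.7 TPM and by day 20 20.4, 27.9 and 18.8 TPM. The libraries of day 9 lay above those of every other day, those of day 11 above days 0, 4 and 20, and those of day 20 below days 0 and 11. IGFBP6 rose by a log2 fold change of 2.51 from day 4 to day 9 (SE 0.28, adjusted p 0.000271, edgeR), a call that held under all 15 alternatives.

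From day 9 to day 11 IGFBP6 fell by 1.71 (SE 0.19, adjusted p 0.0147, edgeR) and from day 11 to day 20 by 1.79 (SE 0.26, adjusted p 0.0244). The former was lost without day 9 plate 2 (−1.87, adjusted p 0.0721), where 0 genes of the whole table were called. The latter passed in 10 of 16 alternatives and was lost with the plate (−1.80, adjusted p 0.115) or the sequencing lane (−1.79, adjusted p 0.083) as a block and without any library of day 11 or plate 2 of day 20 (−1.75 to −1.90, adjusted p 0.0527 to 0.196), while without plate 2_3 it was −1.82 (adjusted p 0.0253). Its net fall from day 0 to day 20 of 1.03 (SE 0.29, adjusted p 0.0316) was −1.05 (adjusted p 0.0208) without plate 2_3. It passed in only 4 of 14 alternatives, which gave −1.29 to −0.74, and was lost without any library of day 0 (adjusted p 0.0599 to 0.121) or without plate 6 of day 20 (0.0616).

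IGFBP7, a secreted protein that binds IGFs weakly and is known from blood vessels, had the largest net rise among the members with counts in every library. It stood at 0.822, 1.49 and 1.20 TPM on day 0 and 0.939, 1.56 and 1.93 TPM on day 4, from only 9 to 24 reads per library. On day 9 it measured 5.67, 29.3 and 8.62 TPM, on day 11 148, 219 and 128.5 TPM, and on day 20 308, 209 and 152 TPM. The libraries of day 9 lay above all earlier and below all later ones, with plate 6 highest on day 9, while days 11 and 20 overlapped.

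IGFBP7 rose from day 4 to day 9 by a log2 fold change of 3.28 (SE 0.63, adjusted p 0.00377, edgeR) under all 15 alternatives. From day 9 to day 11 it rose by 3.50 (SE 0.57, adjusted p 0.0305), but this passed in 9 of 16 alternatives, with values of 3.14 to 4.41 in all of them. The call was lost with the plate as a block (3.23, adjusted p 0.369), with no filter on low counts (0.161), without day 9 plate 2 (0.127) or the day 9 library with no plate number (0.143), and without plate 2, 5 or 6 of day 11 (0.0818, 0.0558 and 0.057). The study's day 11 signature, drawn from its bulk time course, lists an IGFBP gene, which its qPCR primers name as IGFBP7. The rise of IGFBP7 from day 9 to day 11 in these libraries is thus not independent of that choice. The study also measured its signature genes by qPCR and immunoblot across differentiation batches, with primers and an antibody for IGFBP7. It reports significant gains between days 9 and 11 for most of them. Its named exceptions, ACTC1, CRHBP and CCDC80, do not include IGFBP7. The IGFBP7 value for day 20 against day 11 was 0.32 (SE 0.36, adjusted p 0.717), was 0.49 (adjusted p 0.492) without plate 2_3 and turned to −0.13 without plate 2 of day 20. Day 20 lay above day 0 by 7.32 (SE 0.50, adjusted p 0.000192), 7.49 (adjusted p 0.000197) without plate 2_3, and this call held under all 14 alternatives.

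IGFBP3, the chief IGF carrier of blood plasma, was spread widely among the libraries of days 9 and 20. It measured 43.4, 25.9 and 44.9 TPM on day 0, 56.4, 60.4 and 36.4 TPM on day 4, and 22.7, 132 and 23.0 TPM on day 9. On day 11 the values were 311, 316 and 626 TPM and on day 20 215, 171 and 994 TPM. Plate 6 was the highest library on each of days 9, 11 and 20. Every library of days 11 and 20 lay above every library of days 0, 4 and 9, and days 11 and 20 overlapped.

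The value of IGFBP3 for day 9 against day 4 was 0.17 (SE 0.62, adjusted p 0.845, edgeR) and depended on day 9 plate 6, without which it was −1.07 (adjusted p 0.0046), and it was −0.04 without day 4 plate 5. The value for day 11 against day 9 was 2.83 (SE 0.72, adjusted p 0.1). It passed the threshold with the plate as a block (2.96, adjusted p 0.0451), with the sequencing lane as a block (3.21, adjusted p 0.0112), by DESeq2 (2.85, adjusted p 0.000127) and without day 9 plate 6 (4.09, adjusted p 0.0103). For day 20 against day 11 it was 0.10 (SE 0.75, adjusted p 0.964) and took either sign as libraries were left out, with −1.33 without day 20 plate 6, −0.10 and −0.13 without plates 2 and 5 of day 11, and 0.54 without plate 2_3. Day 20 lay above day 0 by 3.42 (SE 0.79, adjusted p 0.0147) and by 3.86 (adjusted p 0.00402) without plate 2_3. That call was lost without any library of day 0 (3.14 to 3.62, adjusted p 0.0556 to 0.0876), and without plate 6 of day 20 the value was 1.97.

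IGFBP5, which binds to extracellular matrix and is known from bone and muscle, rose late. Its values were 16.2, 2.39 and 15.2 TPM on day 0, 20.3, 10.1 and 18.7 TPM on day 4, and 10.2, 22.1 and 13.2 TPM on day 9. They were 21.8, 27.9 and 41.5 TPM on day 11 and 184, 539.5 and 256 TPM on day 20. Every library of day 20 lay above every earlier library, and plate 2_3 was the highest, while days 9 and 11 overlapped.

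IGFBP5 rose from day 11 to day 20 by a log2 fold change of 3.21 (SE 0.43, adjusted p 0.0213, edgeR), and by 2.86 (adjusted p 0.0171) without plate 2_3. The call passed in 12 of 16 alternatives and was lost with the plate as a block (3.26, adjusted p 0.101) and without plate 2, 5 or 6 of day 11 (adjusted p 0.161, 0.11 and 0.126). The value for day 11 against day 9 was 0.98 (SE 0.31, adjusted p 0.167), and it passed with the plate (0.97, adjusted p 0.00163) or the lane (0.97, adjusted p 0.0409) as a block. Day 20 lay above day 0 by 4.49 (SE 0.75, adjusted p 0.00419), 4.15 (adjusted p 0.00552) without plate 2_3, and the call held under all 14 alternatives.

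IGFBP1, a product of liver and decidua whose gene is known to be repressed by insulin, was counted in any number only on day 20. It had 0, 0 and 0 reads on day 0, 0, 1 and 0 on day 4, 1, 0 and 0 on day 9, 2, 3 and 11 on day 11, and 154, 28 and 40 on day 20. The day 20 libraries, at 15, 4.32 and 5.43 TPM, lay above all others, with plate 2 highest. Against a floor of 3 reads over the day 0 libraries together (0.0413 CPM), the day 20 mean of 3.23 ± 2.17 CPM was at least 78.3-fold higher, and its lowest library at least 43.3-fold. Without plate 2_3 the mean was 3.95 CPM, at least 95.8-fold higher. No p-value is given for day 20 against day 0, since IGFBP1 passed the filter on low counts only through day 20, where it was high. The same holds for day 20 against day 11, where the log2 fold change of 3.81 (SE 0.89, edgeR) is given as a size alone.

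IGFBP4, an inhibitor of IGF action that PAPPA cuts, kept the steadiest level of the binding proteins. It measured 73.5, 83.5 and 87.0 TPM on day 0, 80.9, 113 and 121 TPM on day 4, and 169.8, 91.2 and 217 TPM on day 9. The values were 128, 169 and 101.5 TPM on day 11 and 152, 49.4 and 178 TPM on day 20, and every pair of neighbouring days overlapped. Its log2 fold changes were 0.65 (SE 0.33, adjusted p 0.141, edgeR) for day 9 against day 4 and 0.45 (SE 0.52, adjusted p 0.561) for day 20 against day 0. Without day 9 plate 6 the former was 0.98 (adjusted p 0.00235), and without plate 2_3 the latter was 0.89 (adjusted p 0.0269), and in both the library left out was the lowest of its day.

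IGF1, the ligand among the members, had few reads throughout. There were 2, 0 and 0 reads on day 0, 2, 0 and 2 on day 4, 0, 7 and 3 on day 9, 2, 2 and 3 on day 11, and 6, 55 and 12 on day 20, which is 1.73 TPM at most. The 55 reads were those of plate 2_3, at 6.78 reads per kb of exon. In that library 99.6% of 252 autosomal protein-coding genes of at least 2 kb with at most 2 reads in all libraries of days 0 to 11 together were counted, at a median of 7.18 reads per kb. The same genes were counted to 16.7% in plate 2 and to 67.1% in plate 6, and IGF1 there reached 0.739 and 1.48 reads per kb. The IGF1 reads of plate 2_3 were thus at the level of genes with few or no reads on earlier days, and the 6693 exon bases shared with HELLPAR add to the uncertainty. IGFBP1 and IGFBP5 stood above that median in plate 2_3, at 17.1 and 2108 reads per kb.

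IGF1R, the signalling receptor, measured 99.9, 84.2 and 96.2 TPM on day 0, 91.2, 109 and 119 TPM on day 4, 69.7, 64.5 and 114.5 TPM on day 9, 76.2, 113 and 71.7 TPM on day 11 and 89.6, 62.9 and 50.1 TPM on day 20. All neighbouring days overlapped, and its log2 fold changes were −0.33 (SE 0.24, adjusted p 0.295, edgeR) for day 9 against day 4 and −0.72 (SE 0.34, adjusted p 0.152) for day 20 against day 0, or −0.55 (adjusted p 0.185) without plate 2_3. Either value passed when a high library was left out, the former without the day 9 library with no plate number (−0.64, adjusted p 0.00836) and the latter without plate 2 of day 20 (−1.14, adjusted p 0.0402).

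IGF2R measured 120.0, 94.8 and 115 TPM on day 0, 139, 159.6 and 129.6 TPM on day 4, and 43.9, 57.6 and 85.8 TPM on day 9. Later values were 58.9, 85.4 and 96.7 TPM on day 11 and 86.3, 83.6 and 59.8 TPM on day 20. All libraries of day 9 lay below those of days 0 and 4. IGF2R fell from day 4 to day 9 by 1.17 (SE 0.24, adjusted p 0.00445, edgeR), with −1.48 to −0.98 and a call under all 15 alternatives. Its value for day 20 against day 0 was −0.80 (SE 0.30, adjusted p 0.0847), or −0.72 (adjusted p 0.0696) without plate 2_3, and it passed by DESeq2 (−0.80, adjusted p 0.0423) and with all 15 libraries in the fit (−0.83, adjusted p 0.0262).

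Within a library, the ratio of IGF2R to IGF1R TPM was 1.18 ± 0.0426 on day 0, 1.36 ± 0.237 on day 4, 0.758 ± 0.132 on day 9, 0.959 ± 0.337 on day 11 and 1.16 ± 0.186 on day 20 (1.08 without plate 2_3). The level of this ratio depends on the gene length used. The deposited TPM imply 14911 bases for IGF2R, where the exons of GENCODE v44 cover 22613, and with the latter the ratio was 0.8 on day 0, 0.924 on day 4 and 0.516 on day 9. For the binding proteins the implied lengths lay within 5% of the exon lengths, and the shares of the family barely moved.

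Beyond the members, IGF2 was the ligand gene with high counts. It measured 1.36, 1.41 and 2.95 TPM on day 0, 1.70, 2.55 and 1.93 TPM on day 4, 178, 551.5 and 55.7 TPM on day 9, 1113, 158 and 1330.0 TPM on day 11, and 1299, 185 and 3274 TPM on day 20. It rose from day 4 to day 9 by a log2 fold change of 6.96 (SE 0.85, adjusted p 0.00045, edgeR), and every later library lay above every library of days 0 and 4. INS, the insulin gene, was listed at 0 in 13 of 15 libraries. INSR, the insulin receptor, fell from day 4 to day 9 by 1.17 (SE 0.25, adjusted p 0.00571), as did IGFBPL1, an IGFBP-like gene, by 2.91 (SE 0.23, adjusted p 4.3e-05).

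Of the 9 genes for proteases that cut binding proteins and their inhibitors, 6 rose and 2 fell from day 4 to day 9, where 24.3% of all genes were higher and 24.7% lower (median log2 fold change 1.15, all genes 0.01). The proteases PAPPA (2.29, SE 0.64, adjusted p 0.0197, edgeR), HTRA1 (3.25, SE 0.53, adjusted p 0.0017) and ADAM12 (4.44, SE 0.33, adjusted p 3.13e-05) rose, while STC1 (−3.19, SE 0.36, adjusted p 0.000318) and STC2 (−1.06, SE 0.15, adjusted p 0.000586), whose products inhibit PAPPA, fell. For day 20 against day 0, 7 rose and 1 fell, where 16.1% and 11.3% of all genes did (median 2.13, all genes 0.11), PAPPA by 3.76 (SE 0.65, adjusted p 0.00464), and STC1 was the gene that fell (−3.62, SE 0.39, adjusted p 0.000762). From day 9 to day 11 and from day 11 to day 20, 0 of the 9 passed in edgeR, with 3 and 0 at an unadjusted p under 0.05, and DESeq2 called 2 and 0.

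Among 24 genes of signalling below the receptor, 23 were tested from day 4 to day 9, where 9 rose and 6 fell (all genes, 24.3% and 24.7%), with a median of 0.18 (all genes 0.01). PIK3R1, a regulatory subunit of PI3 kinase (2.00, SE 0.18, adjusted p 6.77e-05, edgeR), and the adaptor IRS1 (1.66, SE 0.23, adjusted p 0.000756) rose, and FOXO1, a transcription factor that AKT keeps out of the nucleus (−2.58, SE 0.22, adjusted p 5.27e-05), and the adaptor IRS4 (−2.11, SE 0.27, adjusted p 0.000384) fell. For day 20 against day 0, 4 of 23 rose and 3 fell (median 0.12), where 16.1% and 11.3% of all genes did. In the steps from day 9 to day 11 and from day 11 to day 20, 0 of 23 passed in edgeR, with 7 and 2 at an unadjusted p under 0.05, and DESeq2 called 3 and 0.

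Markers of several cell types moved with the members after day 4. The 6 mesenchymal or fibroblast markers, all counted in every library, summed to between 748 and 2319 TPM on day 9, 1203 and 7310 on day 11, and 1198 and 24360 on day 20. Plate 6 was the highest library of each of these days for this sum and for the endoderm sum described next, as it was for IGFBP3. The 7 cardiomyocyte markers, all counted, summed to between 223 and 1327 TPM on day 9, where plate 6 was highest as for IGFBP7. The other day 9 libraries ran opposite to IGFBP7, with 444 TPM in plate 2 and 223 TPM with no plate number. The sums were 6088, 21240 and 3928 TPM on day 11 and 22920, 22310 and 5356 TPM on day 20, in the order of the IGFBP7 values on these days. IGFBP2 and IGF1R had that order on days 11 and 20 as well. The sum of the 6 endothelial markers had it on day 11 (194, 329 and 151 TPM) but not on day 20 (111, 79.3 and 217 TPM).

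The 7 hepatic or yolk sac endoderm markers summed to between 306 and 1207 TPM on day 9, where ALB was at 0 in plate 2, and between 681 and 2558 on day 11. On day 20, where IGFBP1 appeared, they summed to 21880 TPM in plate 2, 865 in plate 2_3 and 22700 in plate 6, with AFP, a fetal liver and yolk sac protein, at 13770, 516 and 14210 TPM. IGFBP1 in plate 2_3 was at 4.32 TPM, or 17.1 reads per kb beside the median of 7.18 for genes with few or no reads on earlier days. The 4 smooth muscle markers ranged from 466 to 909 TPM on day 11 and from 262 to 375.5 TPM on day 20, the 6 endothelial markers from 151 to 329 TPM and from 79.3 to 217 TPM, and the 4 epicardial markers from 4.98 to 59.4 TPM and from 22.4 to 111 TPM. The endothelial sum was already between 145 and 179 TPM on day 0, mostly from TEK and EGFL7 (means of 63.5 and 98.4 TPM). Day 0 means of PECAM1, CDH5, VWF and ESAM were 0.15, 0.188, 1.13 and 0.324 TPM, against 4.83, 21.2, 5.94 and 10.2 TPM on day 11. The part of other cell types in the member levels was not tested.

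**Figure D4:**
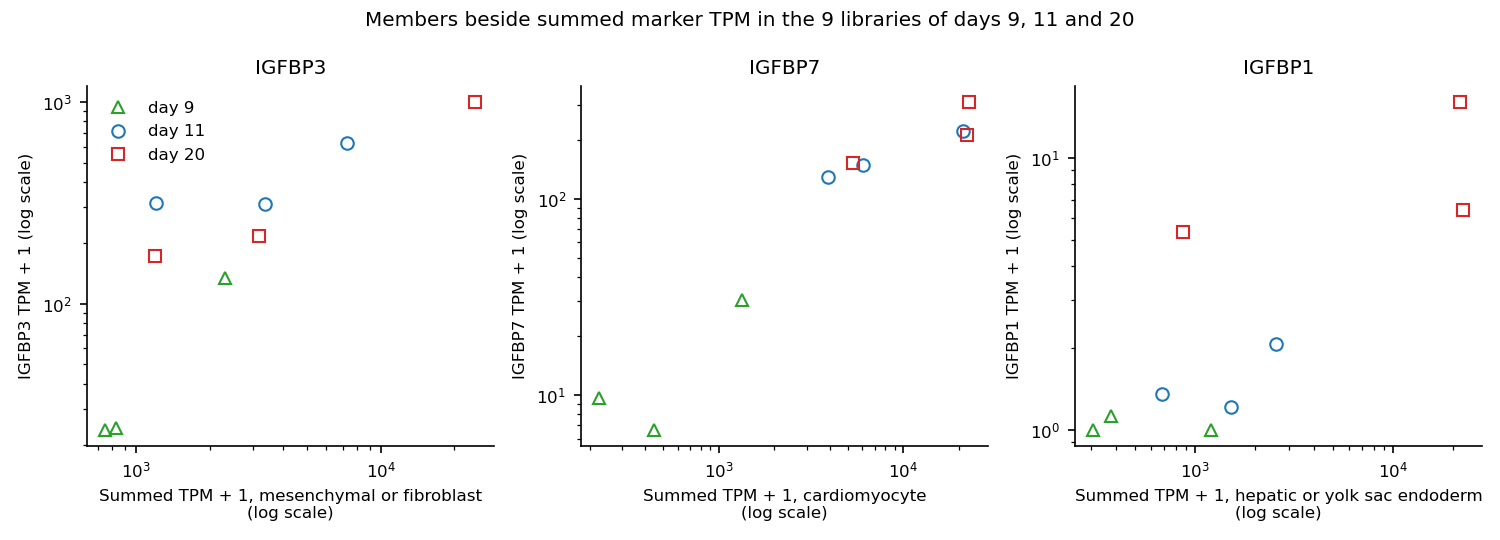
Each panel sets TPM + 1 of a binding protein gene (vertical log axis) against summed marker TPM + 1 (horizontal log axis) in the 9 libraries of days 9 (triangles), 11 (circles) and 20 (squares). For IGFBP3 the plate 6 libraries of days 11 and 20 sit at the upper right of their day, at 626 and 994 TPM, and for IGFBP1 the day 20 library with the lowest endoderm sum sits level with the lower of the others.

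Genes most like each member were found by the root mean square difference of centred log2 CPM over the 15 libraries, among 14784 protein-coding genes, as a description. TNNI1, a troponin of embryonic heart muscle, was closest to IGFBP7 at 0.59 (median over all candidates 3.16), followed by TGM2 (0.64) and CHRM2 (0.71). IGFBP2 was closest to USP9X (0.42), GALNT3 (0.51) and MMP24 (0.56), with a median of 1.84. PTPN13 (0.44) and SERPINE2 (0.48) were closest to IGFBP6, PKIA (0.68) and VEGFC (0.68) to IGFBP3, ABCC3 (0.63) and DIRAS3 (0.71) to IGFBP5, and AREG (0.57) and TMPRSS6 (0.57) to IGFBP1. The profile of IGFBP1 was flat at the floor through day 9, with 0 or 1 reads per library, so its distances rest on the later days.

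Among the members themselves, the closest pair was IGF1R and IGF2R at 0.38, followed by IGFBP4 and IGF1R at 0.62. The closest binding proteins were IGFBP1 and IGFBP5 at 1.00, a value narrowed by the floor of IGFBP1, and next IGFBP4 and IGFBP6 at 1.10. The neighbours on chromosome 7, IGFBP1 and IGFBP3, differed by 1.51 and those on chromosome 2, IGFBP2 and IGFBP5, by 3.04, and the pair furthest apart was IGFBP2 and IGFBP7 at 4.72. These distances describe libraries that share days and cultures, and they bear on the profile in time, not on level.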

How the data were processed

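Total RNA depleted of ribosomal RNA was sequenced as stranded, paired-end libraries. The authors aligned the reads to GRCh38 with STAR 2.5.2b, left out ribosomal and mitochondrial genes and deposited unnormalized counts by gene (featureCounts 1.5.1), whose strand setting is not given in the sources used here. The authors also computed and deposited TPM from the counts with an unstated gene length. A deposited sample table holds a score of RNA integrity, the fraction of uniquely mapped reads and the sequencing lane.

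Samples were grouped by the day in their labels. The members and gene lists were chosen with earlier results of these data known. Named genes were every member, genes of these lists and, for each tested member, the 3 protein-coding genes closest in centred log2 CPM (mean of at least 1 CPM, prior count 2).

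Tests on counts used edgeR 4.0.16 (R 4.3.3, filterByExpr at 10 counts and a total of 15, TMM, robust quasi-likelihood F-test, two-sided) on the 6 libraries of the days compared, or on all 15 for any difference. Adjustment was by Benjamini-Hochberg over all genes tested, at 0.05. The script was tested on simulated data. Totals of 11990302 to 33469703 counts per library, with the spread of 3 libraries, set the standard errors, and 0 reads were read as under 3, for counting error only. Promoter sequences are those of RefSeq, with 7 of 10 members matched, and coordinates are from GENCODE v44.

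Alternatives were DESeq2 1.42.0, upper-quartile or library-size scaling, no filter, all libraries in the fit, limma 3.58.1 on log2(TPM + 1) or log2(TPM + 0.1), a mean of at least 1 TPM, TPM without the 57-base gene, the plate or lane as a block, each library left out and, chosen after seeing the data, exon lengths of GENCODE v44 and the day 20 sum, receptor ratio and IGFBP1 bound without plate 2_3. The plate pairing comes from the sample names, with the library of plate 2_3 counted as plate 2. In the plate block, only plates 2 and 6 held libraries of both days 9 and 11, so few libraries measured the spread. Deviations from the day means correlated across genes with r of 0.102 and 0.301 in the same-plate pairs of days 9 and 11, and of −0.144, 0.0128 and 0.347 in those of days 11 and 20.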

Additional observations from a re-analysis of the deposited data

How the results depend on the processing

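From day 4 to day 9 the 4 calls held under every alternative run, as did those of IGFBP2, IGFBP5 and IGFBP7 for day 20 against day 0, while both later steps depended on the fit. For day 11 against day 9 the 2 members past the threshold became 1 with no filter on low counts, 4 with the plate as a replicate block, 4 with the lane as a block, and 0 to 3 with a library left out. For day 20 against day 11 the 2 became 0 with the plate as a replicate block, 1 with the lane as a block, which kept that of IGFBP5, and 0 to 3 with a library left out. The 3 include IGFBP1, which passed the filter only through day 20 and is not read as a result. Over all genes the same settings moved the 495 calls of day 11 against day 9 to 1971 with the plate block, 1674 by DESeq2, 1016 with no filter and 182 under limma with a mean of at least 1 TPM, and the 332 of day 20 against day 11 to 3 with the plate block, 137 with the lane block, 1871 by DESeq2 and 3132 with all 15 libraries in the fit. With all 15 libraries, the 10406 calls of day 9 against day 4 became 6209 and the 6027 of day 20 against day 0 became 10785. With 1 library left out, calls over all genes ranged from 0 to 510 for day 20 against day 11. For day 4 against day 0 they were 0, and 64 with no filter. Beside the calls named with their results, the plate block changed none, and no paired analysis was possible for the comparisons with day 0 or of day 9 with day 4 because they share fewer than 2 plates.

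The value of IGFBP3 for day 9 against day 4 turned from 0.17 to −0.27 under limma on log2(TPM + 1), with or without the TPM filter, −0.28 with 0.1 added and −0.33 with the lane as a block, and ranged from −1.07 to 0.55 with a library left out. For day 20 against day 11 it turned from 0.10 to −0.25 in the 3 limma settings, −0.24 with the plate and −0.41 with the lane as a block, and ranged from −1.33 to 0.54. That of IGFBP7 for day 20 against day 11 ranged from −0.13 to 0.52 with a library left out. The cause was not tested. Without the 57-base gene the day 0 mean of IGFBP4 was 88.7 in place of 81.4 TPM. Over the member fold changes printed singly above, settings that kept every library gave 10 values newly past the threshold, 11 that lost it and 9 reversed, and leaving out a library gave 6, 20 and 6. Member fold changes not printed singly, among them those of day 4 against day 0, are outside this tally. Depth limits IGF1, at 7 reads or fewer through day 11, and IGFBP1 before day 20, which were too few reads for a test.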
